A study of Danio rerio with 18 samples.

Results

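The genes foxi1, tfap2a, tfap2c, dlx3b and tp63 encode transcription factors of the zebrafish non-neural ectoderm, the tissue that forms epidermis and the placodes of the head. They were taken by their symbols, with earlier results of these data known, and make up 5 of the 32520 genes in the deposited gene table. All 5 also had values among the 17135 genes of the deposited comparison tables. Under CDK9 overexpression foxi1 rose at both stages and tfap2c passed the test at the 256-cell stage. The genes tfap2a, dlx3b and tp63 passed in no comparison. No adjusted p was kept for dlx3b in any comparison, or for tp63 under CDK9 at the 256-cell stage, so they could not pass there.

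Non-neural ectoderm is induced on the ventral side of the fish embryo by Bmp signals, which act through receptors and Smad proteins on target genes in the nucleus. The forkhead factor Foxi1, the AP-2 factors Tfap2a and Tfap2c and the zinc finger factor Gata3 are known in zebrafish to make ectoderm competent to form placodes. Foxi1 is needed for the otic placode, Tfap2a and Tfap2c act together in neural crest, the homeodomain factor Dlx3b acts in the otic and olfactory placodes, and Tp63 (p63) maintains the proliferating epidermis. The stages studied here lie before gastrulation, so the name of the group refers to what these genes do later.

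RNA was measured in whole wild type zebrafish embryos by enriched SLAM-seq. In this method the nucleotide analogue s4UTP marks RNA made after its injection, marked RNA is captured through biotin, and iodoacetamide alters its marked bases. One set of embryos received s4UTP with cdk9 mRNA (called CDK9 here, since it overexpresses the kinase that releases paused RNA polymerase), another s4UTP with MiR430 microRNA, and the controls s4UTP alone (untreated). Each was collected at the 256-cell and the 1024-cell stage with 3 biological replicates, so that 6 groups and 18 libraries were made. The CDK9 and MiR430 embryos are each compared with untreated embryos of the same stage, and both comparisons of a stage therefore share their untreated libraries. The groups include none with a control RNA, so that added RNA as such and the action of CDK9 or MiR430 cannot be told apart.

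All log2 fold changes, standard errors (SE) and p-values of single genes are the authors' own, and their fold changes are shrunken towards 0. Values per library were not used here, because the 18 count columns match no sample label, so a gene's level is known only as its mean over all libraries. Of the listed markers of tissues that whole embryos may hold, 6 of 12 for the enveloping layer, 7 of 9 for the yolk syncytial layer and 12 of 12 for maternal and germ plasm RNA had values. Mitochondrial genes took 96.8% of the sum of all mean normalized counts, and the median over 17098 nuclear genes was 9.79.

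By mean normalized count the 5 genes fell into an abundant and a scarce class. Averaged over all libraries in the authors' deposited table, the mean normalized count was 76.5 for foxi1, 67.8 for tfap2a and 54.4 for tfap2c, but 5.16 for tp63 and 0.378 for dlx3b. Of all nuclear genes, 92.5% lay below foxi1, 90.9% below tfap2a, 87.6% below tfap2c, 37.0% below tp63 and 0.322% below dlx3b. Per kilobase of exon the order stayed as it was, with 48.7 normalized counts for foxi1, 21.9 for tfap2a, 10.7 for tfap2c, 1.46 for tp63 and 0.237 for dlx3b. These levels mix the 6 groups, the CDK9 groups included, and carry no spread over samples. Whether neighbours in the order differ beyond replicate error was therefore not tested. They come from captured RNA, and the labels do not state whether all reads or only reads with altered bases were counted. With a mean count under 1, no change of dlx3b was detectable in these data.

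The genes also differ widely in structure. In GRCz11, foxi1 (ENSDARG00000104566, chromosome 12, 43662980 to 43664682, minus strand) has 2 exon blocks over 1.70 kb, with 1571 bases of exon. The gene dlx3b (ENSDARG00000014626, chromosome 12, 5708400 to 5711920, plus strand) has 3 exon blocks over 3.52 kb, and tfap2a (ENSDARG00000059279, chromosome 24, 8721676 to 8732519, minus strand) has 9 over 10.8 kb. The paralog tfap2c (ENSDARG00000040606, chromosome 6, 56141852 to 56179707, plus strand) has 8 exon blocks over 37.9 kb, and tp63 (ENSDARG00000044356, chromosome 6, 28795780 to 28914225, plus strand) has 17 over 118 kb. Introns made up 7.75% of the span of foxi1 and 97.0% of that of tp63. None of the 5 genes overlapped another gene of the deposited gene table on either strand.

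**Figure D1:**
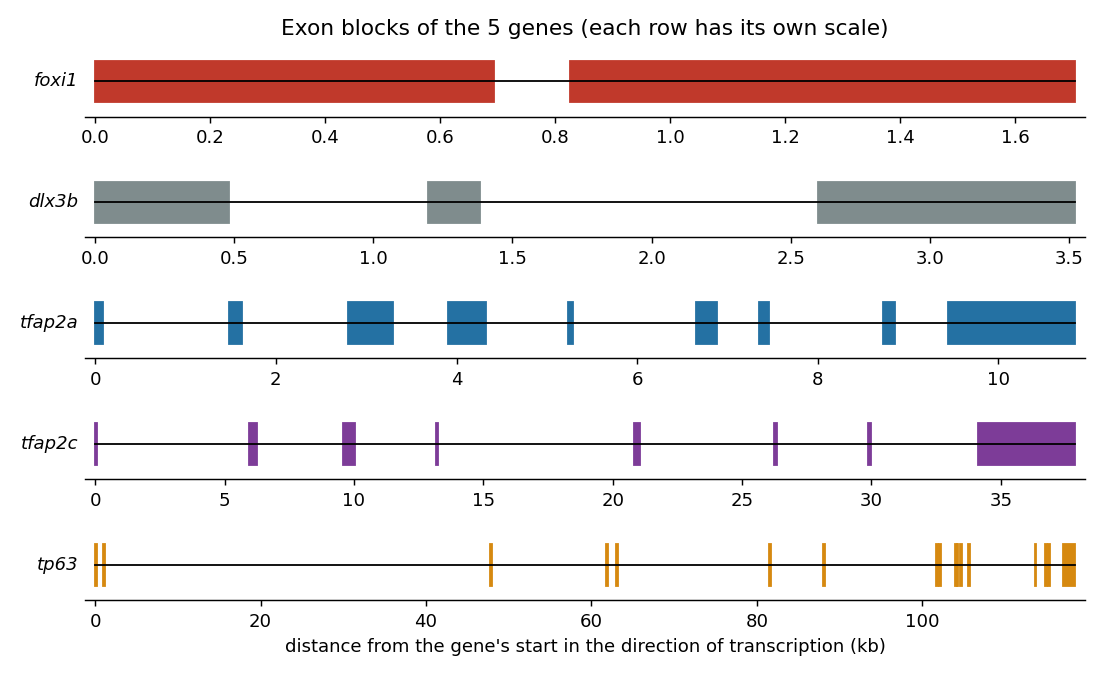
Exon blocks (filled boxes) and introns (line) of the 5 genes, drawn from the deposited gene table as distance in kb from each gene's start in the direction of transcription (x axis), with a separate scale per row. The span runs from 1.70 kb in foxi1 to 118 kb in tp63.

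At the 256-cell stage, CDK9 embryos had higher foxi1 and tfap2c than untreated embryos, by an adjusted p under 0.05. None of the 5 fell, and 3 did not pass. An adjusted p was kept by 3 of the 5 (foxi1, tfap2c and tfap2a), so dlx3b and tp63 could not be called in either direction. Over all 9124 tested genes the authors' deposited table had 460 (5.04%) that rose and 34 (0.373%) that fell by this rule. Recentring the statistics on their median left 302 rises and 65 falls, so that 82.3% of calls were upward, against 93.1% as deposited. The median log2 fold change of the 5 genes was 0.73, which is the value of tfap2a, a gene not called. That of all genes was 0, with at least 2035 genes listed at exactly 0. These medians were not tested and do not show a shift of the group.

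The otic placode gene foxi1 had the largest change among the 5. The authors' deposited table gave it a log2 fold change of 6.55 (SE 1.78, 95% interval 3.07 to 10.03) and an adjusted p of 0.000512. This shrunken estimate amounts to 93.7-fold, ranked at position 99 of 9124 by p, and lay above the log2 fold change of 99.1% of tested genes. By the authors' own rule (adjusted p under 0.01 and log2 fold change above 2), which took 2.48% of tested genes upward, foxi1 was the 1 member called. Among 1679 genes with a mean within a factor of 1.5 of that of foxi1, 112 rose (6.67%), and 14 had a larger log2 fold change. These means take in the CDK9 libraries, so the match is partly made on the response itself and is a description.

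The AP-2 factor genes gave smaller and less certain values. The log2 fold change of tfap2c was 2.64 (SE 3.02, adjusted p = 0.0439) by the authors' deposited table. The interval of this shrunken estimate, -3.27 to 8.56, spans 0, although the p of its test (0.00221) lay just within the largest p called, 0.00268. Its call was lost without the filter on low counts (adjusted p = 0.0815), with recentred statistics (adjusted p = 0.102) and by the authors' rule. For tfap2a the authors' deposited table listed a log2 fold change of 0.73 (SE 1.37, 95% interval -1.95 to 3.42), an unadjusted p of 0.0311 and an adjusted p of 0.221. The intervals of foxi1, tfap2c and tfap2a overlap, and differences between members were not tested.

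The scarce members gave no call. The authors' deposited table listed the epidermal factor gene tp63 with a log2 fold change of -0.35 (SE 0.73, 95% interval -1.78 to 1.09) and an unadjusted p of 0.146. It had no adjusted p, since its mean of 5.16 lies below 8.45, the lowest mean of any gene that kept one. The placode gene dlx3b was listed in the authors' deposited table at a log2 fold change of 0 with a p of 1. In all, 1567 genes share exactly its fold change, SE (0.88) and p, so its entry carries no measurement particular to dlx3b. By an unadjusted p under 0.05, 3 of the 5 genes were higher (foxi1, tfap2c and tfap2a) and 0 lower, where 7.98% of all genes with a p were higher.

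**Figure D2:**
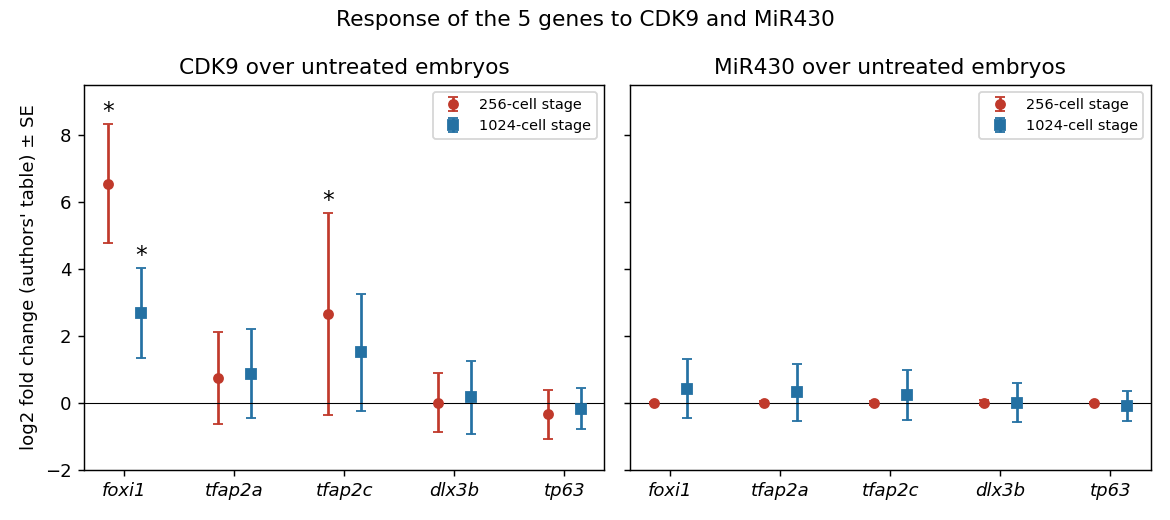
Log2 fold change (y axis) of each of the 5 genes (x axis) in CDK9 (left) or MiR430 (right) over untreated embryos, from the authors' deposited tables. Points are estimates, bars reach 1 SE to each side, circles are the 256-cell and squares the 1024-cell stage, and stars mark an adjusted p under 0.05, which foxi1 reached at both stages and tfap2c at the 256-cell stage, each under CDK9.

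CDK9 embryos of the 1024-cell stage showed 1 rise among the 5 genes, again foxi1, with 0 fallen and 4 not passing. Over 11724 tested genes the authors' deposited table had 690 (5.89%) that rose and 54 (0.461%) that fell. It gave foxi1 a log2 fold change of 2.67 (SE 1.34, 95% interval 0.04 to 5.31) and an adjusted p of 0.0252. This is a 6.37-fold shrunken estimate, at position 520 by p, and lay above that of 96.9% of tested genes. By the authors' stricter rule, which took 2.65% of tested genes upward, 0 of the 5 were called. Among the 1679 genes of like mean over all libraries, the CDK9 ones included, 168 rose, and 82 had a larger log2 fold change than foxi1.

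The other 4 genes stayed short of the threshold. For tfap2c the authors' deposited table listed a log2 fold change of 1.502 (SE 1.76, 95% interval -1.95 to 4.96), an unadjusted p of 0.0120 and an adjusted p of 0.118. For tfap2a it listed 0.86 (SE 1.33, 95% interval -1.75 to 3.48), with an adjusted p of 0.298. Both intervals hold values above the called estimate of foxi1, so they do not show that the AP-2 genes stayed level. The same table listed the long gene tp63 at -0.18 (SE 0.62, adjusted p = 0.807), and dlx3b at 0.16 (SE 1.09, unadjusted p = 0.446, no adjusted p). In all, 29 genes share exactly this fold change, SE and p of dlx3b, so this entry too carries no measurement particular to it. By an unadjusted p under 0.05, 2 of the 5 genes were higher (foxi1 and tfap2c) and 0 lower, where 9.83% of all genes with a p were higher.

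**Figure D3:**
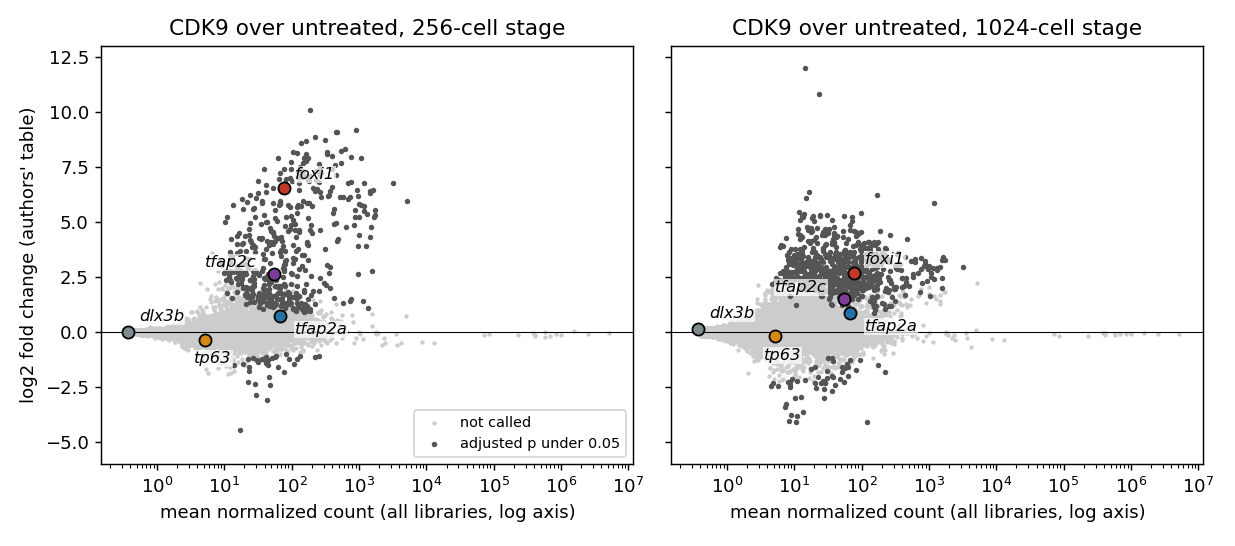
Log2 fold change in CDK9 over untreated embryos (y axis) against the mean normalized count over all libraries (x axis, log scale) for the 16996 genes with a p at the 256-cell (left) and 1024-cell stage (right), from the authors' deposited tables. Dark points have an adjusted p under 0.05, the 5 genes are labelled, with foxi1 at 6.55 on the left and 2.67 on the right, and 13 genes on the left lie outside the plotted range.

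The estimate of foxi1 under CDK9 was larger at the 256-cell than at the 1024-cell stage, but this difference did not pass. It came to 3.88 on the log2 scale (SE 2.23, 95% interval -0.49 to 8.24), with an unadjusted p of 0.0817 and an adjusted p of 1.00 over 9124 genes. The difference was 1.14 for tfap2c (95% interval -5.71 to 7.99) and -0.13 for tfap2a (95% interval -3.88 to 3.61), each with an adjusted p of 1.00. Of all genes so tested, 18 (0.197%) differed between stages. A difference between the stages in the response of tfap2c is thus not shown, although its call was made at the 256-cell stage alone.

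In MiR430 embryos 0 of the 5 genes passed at the 256-cell stage, and 0 were higher or lower by an unadjusted p under 0.05. Over 12373 tested genes 0.0566% were called in either direction, and 1.46% of genes with a p were higher by the unadjusted rule. Estimates of most genes in this comparison are strongly shrunken (median SE 0.0248), and those of the 5 genes lie so near 0 that they are not read as sizes. The authors' deposited table listed unadjusted p-values of 0.251 for tfap2c, 0.314 for tfap2a, 0.672 for foxi1 and 0.729 for tp63, and dlx3b again at 0 with a p of 1.

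MiR430 embryos of the 1024-cell stage also had 0 calls among the 5 genes, where 1.07% of 10748 tested genes were called in either direction. The authors' deposited table gave foxi1 a log2 fold change of 0.42 (SE 0.87, 95% interval -1.29 to 2.13), with an unadjusted p of 0.0429 and an adjusted p of 0.418. It listed tfap2a at 0.31 (SE 0.85, adjusted p = 0.498), tfap2c at 0.23 (SE 0.76, adjusted p = 0.607) and tp63 at -0.10 (SE 0.44, adjusted p = 0.86). The gene dlx3b was listed at 0 with a p of 1, as were 943 genes in all. By an unadjusted p under 0.05, 1 of the 5 genes (foxi1) was higher and 0 lower, where 6.01% of all genes with a p were higher.

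Set side by side at the 1024-cell stage, the authors' deposited tables gave foxi1 a log2 fold change of 2.67 under CDK9 and 0.42 under MiR430. For tfap2c the values were 1.502 and 0.23, for tfap2a 0.86 and 0.31, and for tp63 -0.18 and -0.10 in the same order. They share their untreated libraries, and CDK9 was not tested against MiR430.

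The nearest relatives of the 5 genes gave no calls under CDK9. Of 15 listed relatives from the gene families of the 5 factors 11 had values, and 0 rose and 0 fell at either stage. By an unadjusted p under 0.05, 1 of the 11 was higher at the 256-cell and 2 at the 1024-cell stage, where 7.98% and 9.83% of all genes with a p were. Most were scarce, with a median mean normalized count of 1.85, and 2 kept an adjusted p. For the homeobox gene dlx1a (mean 18.2) the authors' deposited tables listed log2 fold changes of 0.91 (SE 2.05, adjusted p = 0.171) at the 256-cell and 0.84 (SE 1.56, adjusted p = 0.200) at the 1024-cell stage. The median log2 fold change of the relatives was 0 at the 256-cell and 0.19 at the 1024-cell stage, beside 0 and 0.05 for all genes.

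Genes of the Bmp pathway, which lies upstream of the 5 factors, had 1 call under CDK9. Of 14 measured ligands, receptors and Smads 1 rose and 0 fell at the 256-cell stage, and 0 rose and 0 fell at the 1024-cell stage, where 5.04% and 5.89% of all tested genes rose. Tested genes are those that kept an adjusted p, as did 7 of the 14 at the 256-cell and 10 at the 1024-cell stage. The ligand gene bmp2b, needed for ventral fate in zebrafish, rose by 5.68 on the log2 scale at the 256-cell stage (SE 2.85, adjusted p = 0.00562), and the authors' deposited table listed it at 1.19 (SE 1.49, adjusted p = 0.195) at the 1024-cell stage. By an unadjusted p under 0.05, 2 of the 14 were higher and 1 lower at the later stage, where 9.83% of all genes with a p were higher and the share lower was not computed. The transducer gene smad5 (mean 92.8) was listed in the authors' deposited tables at 0.03 (adjusted p = 0.968) and -0.16 (adjusted p = 0.712). The list's median log2 fold change was 0.04 at the 256-cell and 0.10 at the 1024-cell stage.

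Other epidermal, preplacodal and neural-border genes had more calls. All 7 lists were chosen with earlier results of these data known, so their counts beside the shares of all genes are a description. Of 22 measured members 7 rose under CDK9 at the 256-cell stage, namely klf17, grhl3, klf2b, gata2a, gata3, krt8 and klf2a, while 15 did not pass and 0 fell, and 5.04% of all tested genes rose. An adjusted p was kept by 13 of the 22 at each stage, and the others could not pass. By the authors' deposited table the epidermal regulator grhl3 had a log2 fold change of 9.19 (SE 1.87), with an adjusted p of 4.19e-06. The competence factor gene gata3, known to act beside foxi1, tfap2a and tfap2c, rose by 6.58 (SE 1.60, adjusted p = 0.000219) in that table. At the 1024-cell stage 4 of 22 rose, namely krt8, klf17, msx1b and gata3, where 5.89% of all tested genes rose. With recentred statistics 2 of the list did so, where 518 of 11724 tested genes rose. Over genes with a mean of at least 50 it was also 2, where 405 of 2390 genes rose. That set leaves out krt8 (mean 21.4), msx1b (mean 8.81) and other members with means under 50, so this 2 is not out of 22. By the authors' rule 1 of the list rose, where 2.65% of all tested genes did. By the authors' deposited table the keratin gene krt8 rose by 4.32 (SE 1.40, adjusted p = 0.00171) and gata3 by 2.45 (SE 1.60, adjusted p = 0.0422) at this stage. The list's median log2 fold change was 0.06 at the 256-cell and 0.23 at the 1024-cell stage, and its scarce members include the placode gene six1b (mean 1.04).

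Some neural ectoderm genes, the counterpart of the non-neural group, were called too. This list was likewise chosen with earlier results known, so its counts are a description. Of 20 measured members 7 rose, 13 did not pass and 0 fell under CDK9 at the 256-cell stage, where 5.04% of all tested genes rose, with irx7, foxd5, her3 and sox19a at the smallest adjusted p. An adjusted p was kept by 16 of the 20 at each stage, and the others could not pass. By the authors' deposited table the Hairy-related gene her3 rose by 8.20 (SE 1.65, adjusted p = 8.13e-06) and the SoxB1 gene sox19a by 7.07 (SE 2.37, adjusted p = 0.00128). At the 1024-cell stage 5 rose, where 5.89% of all tested genes did, 15 did not pass and 0 fell. By the authors' rule 1 rose, where 2.65% of all tested genes did. By the authors' deposited table the zinc finger gene zic2a rose by 3.12 (SE 1.41, adjusted p = 0.0141). The list's median log2 fold change was 0.55 at the 256-cell and 0.87 at the 1024-cell stage. Neural genes were measured at higher levels (median of means 59.9, against 17.4 in the epidermal list), and the lists were not tested against each other.

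Under MiR430 all 4 of these lists had 0 members past the threshold at either stage. Of all tested genes 0.0566% (256-cell) and 1.07% (1024-cell) were called, so this is not read as a result about the lists. In order of stage, an adjusted p was kept by 4 and 2 of 11 relatives and by 11 and 8 of 14 Bmp pathway genes. It was kept by 13 of 22 epidermal and 16 of 20 neural genes at each stage. By an unadjusted p under 0.05, 4 of 22 epidermal and 3 of 20 neural genes were higher at the 256-cell stage, where 1.46% of all genes with a p were. At the 1024-cell stage 4 of 22 epidermal genes, not the same set, and 8 of 20 neural genes were higher by that rule, where 6.01% of all genes with a p were, and 0 were lower in either list at either stage.

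**Figure D4:**
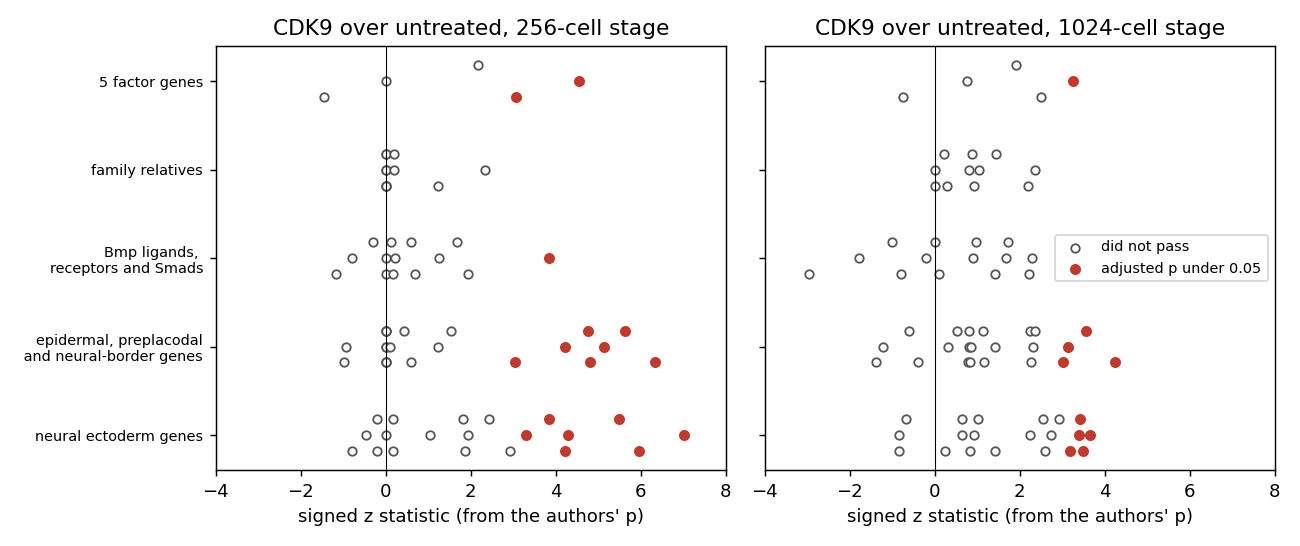
Signed z statistic (x axis), made from the authors' p-value and the sign of the log2 fold change, for the 5 factor genes and for 4 lists of related genes (rows) in CDK9 over untreated embryos at the 256-cell (left) and 1024-cell stage (right). Each point is 1 gene and filled points have an adjusted p under 0.05, with 2 filled among the 5 genes on the left and 1 on the right.

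Some markers of extraembryonic tissues also rose under CDK9, at stages where 5.04% (256-cell) and 5.89% (1024-cell) of all tested genes did. Marker lists were also chosen with earlier results known, so their counts are a description. Of 6 measured enveloping layer markers 3 rose at the 256-cell stage, klf17, grhl3 and krt8, which also stand in the epidermal list. Of 7 measured yolk syncytial layer markers 1 rose there, mxtx2, by 4.86 (SE 1.03, adjusted p = 3.87e-05) according to the authors' deposited table. An adjusted p was kept at this stage by 4 of the 6 enveloping layer and 4 of the 7 yolk syncytial markers. By the 1024-cell stage 2 of the 6 enveloping layer markers rose, as did 1 of the 7 yolk syncytial markers. Of the enveloping layer markers 1 rose by the authors' rule, where 2.65% of all tested genes did. Over genes with a mean of at least 50 it was also 1, where 405 of 2390 genes rose. That set leaves out krt8 (mean 21.4) and other members with means under 50, so this 1 is not out of 6. At that stage all 6 enveloping layer and 4 of the 7 yolk syncytial markers kept an adjusted p. Of 12 maternal and germ plasm markers 0 rose at either stage. By an unadjusted p under 0.05, 0 were higher at either stage, 1 was lower at the 256-cell and 4 were lower at the 1024-cell stage. The share of all genes lower by that rule was not computed, so these counts are not read as a result about maternal RNA. The germ plasm gene tdrd7a fell by 1.19 at the 1024-cell stage (SE 0.61, adjusted p = 0.0328) according to the authors' deposited table, where 0.461% of all tested genes fell. In whole embryos more cells of a type and more RNA per cell cannot be told apart, and the part of these layers in the rise of foxi1 was not tested.

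The classes of gene span used here were chosen after values were seen, and the span of 1 of the 5 genes falls in each. Shares are over tested genes, so dlx3b is counted at neither stage and tp63 at the 1024-cell stage only. At the 256-cell stage 30.3% of 386 tested nuclear genes of up to 2 kb, the class of foxi1, rose under CDK9, and 22.3% of 296 with mir-430 and hist genes left out. The share was 10.2% for 2 to 5 kb (dlx3b), 4.37% for 5 to 20 kb (tfap2a), 2.51% for 20 to 60 kb (tfap2c) and 2.57% above 60 kb (tp63). The 1024-cell stage had shares of 34.9% (29.1% without mir-430 and hist genes), 11.3%, 6.03%, 2.53% and 1.05% in the same order of classes. The call of tfap2c stood in a class with few calls, while foxi1 stood in the class with the highest share of calls at both stages. The part of gene span in the response of single genes was not tested.

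**Figure D5:**
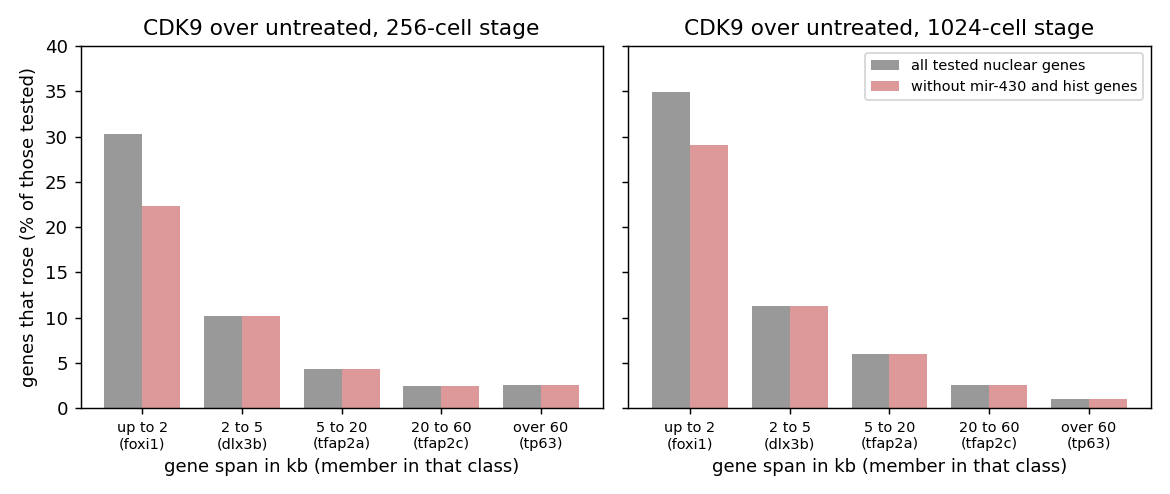
Percent of tested nuclear genes that rose in CDK9 over untreated embryos (y axis, adjusted p under 0.05) in 5 classes of gene span in kb (x axis), at the 256-cell (left) and 1024-cell stage (right). Each class is labelled with the member of that span, though dlx3b (both stages) and tp63 (256-cell stage) were not among the tested genes. Grey bars hold all tested nuclear genes and pink bars leave out mir-430 and hist genes, and the share falls from the class of foxi1 (30.3% and 34.9%) to that of tfap2c (2.51% and 2.53%).

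Neighbours in the genome that kept an adjusted p were not called under CDK9. The gene nearest to tfap2c was rtf2, 0.884 kb away on the same strand, which the authors' deposited tables listed at a log2 fold change of -0.03 (adjusted p = 0.968) for the 256-cell and 0.00 (adjusted p = 1.00) for the 1024-cell stage. The gene tbc1d23 lies 0.008 kb beyond tp63 on the opposite strand, and was listed there at -0.02 (adjusted p = 0.981) and 0.53 (adjusted p = 0.376). The cluster partner of dlx3b, dlx4b, lies 7.70 kb away and was as scarce, with a mean of 0.560. The nearest genes on the sides of foxi1 were zgc:112964, 4.61 kb away on the same strand, and clrn3, 61.0 kb away on the opposite strand. Neither had values in the deposited comparison tables.

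Genes with the most similar signed z statistics were found by their distance over the 4 comparisons. They were sought among 7079 genes with a mean of at least 10. A signed z holds the p and the direction of a change, not its size. Closest to foxi1 were jun (distance 0.445), rps10 (0.503) and fzd8b (0.566). The AP-1 gene jun was listed in the authors' deposited tables at log2 fold changes under CDK9 of 6.85 (SE 1.81) for the 256-cell and 2.67 (SE 1.47) for the 1024-cell stage, beside 6.55 and 2.67 for foxi1. In the same order of stages, rps10 was listed at 2.35 and 2.18 and fzd8b at 4.27 and 1.85. At the 1024-cell stage fzd8b was not called (adjusted p = 0.0677). Closest to tfap2c were f11r.1 (0.282), gadd45aa (0.285) and elovl6l (0.342), and to tfap2a crcp (0.209), larp1 (0.290) and upf3b (0.369). The gene tp63 lay closest to kcnk6 (0.232), fam113 (0.252) and fkbp14 (0.262). No such genes are given for dlx3b, whose entry in each of the 4 comparisons is shared exactly by other genes and carries no measurement particular to it. Between tfap2a and tfap2c the distance was 1.11, with 107 genes nearer to tfap2a than tfap2c was, and between foxi1 and tfap2c it was 1.85. These distances rest on 4 values with shared untreated libraries and are a description.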

How the data were processed

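Enriched SLAM-seq gave 18 libraries. Tools that the submitters' processing notes list are DESeq2, featureCounts, HISAT, Picard, SAMtools and Trimmomatic, with the build GRCz11 and no versions. The authors' deposited mean normalized count is a signal, equal in all 4 comparison tables. Deposited log2 fold changes and SE were taken as shrunken by the authors, because many lie near 0 at small p. Each p-value and adjusted p-value is as deposited, and recomputing Benjamini-Hochberg over genes with an adjusted p gave the same values. The 18 count columns match no sample label and were not used, so the planned count models were not run.

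Symbols were joined on gene IDs, and a call is a deposited adjusted p under 0.05. Intervals are normal, at 95%. Stage differences were divided by their combined SE, given a two-sided normal p and adjusted by Benjamini-Hochberg. The step was run on data simulated without shrinkage, which does not check it for shrunken estimates, where it is approximate. For MiR430 stage differences were taken on z statistics only, which compare evidence and not size. Span classes were chosen after values were seen. Named were the 5 genes, up to 4 called members per list and stage (smallest adjusted p first) or, with none called, the 2 of highest mean, and the 3 genes most like each member except dlx3b. Some genes that this rule takes are not reported here. Chosen after their values were seen were gata3, krt8 and klf2a at the 256-cell stage, six1b and the neighbours. The members and the 7 lists were chosen with earlier results of these data known. Software was Python 3.11.15, scipy 1.17.1, numpy 2.4.6, pandas 2.3.3 and matplotlib 3.10.9.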

Additional observations from a re-analysis of the deposited data

How the results depend on the processing

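At the 256-cell stage under CDK9, 2 of the 5 genes rose as deposited, and 1 (foxi1) without the filter on low counts, with recentred statistics or by the authors' stricter rule. At the 1024-cell stage 1 rose, and 0 by the stricter rule. The adjusted p of foxi1 ran from 0.000149 to 0.00217 at the 256-cell stage and from 0.00983 to 0.0455 at the 1024-cell stage over the 3 other alternatives (a mean of at least 50, no filter, recentred statistics). That of tfap2c at the 256-cell stage was 0.0183, 0.0815 and 0.102 in that order, and the cause was not tested. Under MiR430 0 of the 5 passed in each alternative run. The test between stages under CDK9 covered 3 of the 5 (foxi1, tfap2a and tfap2c), and 0 passed, also on z statistics or over genes with a mean of at least 50. The genes dlx3b in all comparisons and tp63 under CDK9 at the 256-cell stage have no deposited adjusted p, and without the filter theirs ran from 0.776 to 1. For MiR430 the difference of z statistics between stages had an adjusted p of 1 for the 4 genes tested. Such a difference, for CDK9 too, compares the evidence at the 2 stages and not the size of the response.

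Counts over all genes moved by more than 1.5 times in some alternatives. The set of tested genes also changed, to 2390 with a mean of at least 50 and to 16996 without a filter. The 460 rises at the 256-cell stage became 302 with recentred statistics and 226 by the stricter rule, and the 34 falls became 22 without a filter, 65 with recentred statistics and 6 by the stricter rule. The 690 rises at the 1024-cell stage became 405 with a mean of at least 50 and 311 by the stricter rule. The 54 falls became 30 and 11 (73 with recentred statistics). With a mean of at least 50 the rises and falls were fewer but a larger share of the tested genes, 2390 against 11724 as deposited. The 109 rises under MiR430 at the 1024-cell stage became 21 by the stricter rule, and the 6 falls became 1 with a mean of at least 50, 1 without a filter and 0 by the stricter rule. The 3 falls at the 256-cell stage became 1 with a mean of at least 50. By the authors' stricter rule 1 epidermal and 1 neural gene rose at the 1024-cell stage, where 2.65% of all tested genes did. As deposited 4 and 5 rose, where 5.89% of all tested genes did.

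No paired analysis was possible because the count columns carry no replicate of the labels. For the same reason models with other tools or normalizations, with a replicate block and with replicates left out were not run. The low count limits dlx3b, with a mean of 0.378, and the part of sequencing depth in it was not tested. The 593 genes of like mean could not be called under CDK9 either. The lowest mean of any gene that kept an adjusted p was 8.45 at the 256-cell and 3.64 at the 1024-cell stage.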
